A study of Homo sapiens with 6 samples.

Results

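Desmosome components, the structural genes of a cell contact, were compared between OVCAR5 cells (an ovarian cancer line) given 100 nM NTX301 and cells given DMSO, the control, each for 3 days. NTX301 is a hypomethylating agent, a compound class that reduces DNA methylation. Each treatment had 3 RNA sequencing libraries of a single cell line, and the labels do not say whether they came from separate cultures, so every p-value reflects library-to-library spread alone, and that spread may be technical. The genes were taken from a fixed list of structural desmosome genes by symbol: DSG2, DSG3, DSC2, DSC3, JUP, PKP1, PKP2, PKP3, DSP and PERP. All 10 were found among the 62656 genes of the tables, and 8 of them passed the filter on low counts.

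Desmosomes are cell contacts that tie the intermediate filaments of neighbouring cells together, and in epithelia those filaments are keratins. Desmogleins (DSG) and desmocollins (DSC) are cadherins that span the membrane and bind the cadherins of the next cell. Inside the cell, the armadillo proteins plakoglobin (JUP) and plakophilins (PKP) bind the cadherin tails, and desmoplakin (DSP) links them to keratin. DSG2, DSC2 and PKP2 are the broadly expressed forms of simple epithelia, whereas DSG3, DSC3 and PKP1 are best known from stratified epithelia such as skin. PERP, a membrane protein with several spans, is needed for desmosomes of stratified epithelia and is a target of p53 and p63.

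The epithelial state of the labelled line was checked against marker lists. These lists do not bear on the tissue of origin, which was not tested. All 10 listed genes of simple epithelial carcinoma cells reached 1 TPM (a transcript level corrected for length and library size), with a summed level of 4552 to 4745 TPM with DMSO and 2811 to 2884 TPM with NTX301. That sum was mainly KRT8 (mean 2159 TPM with DMSO and 1180 TPM with NTX301) and KRT18 (1794 and 980.2 TPM). KRT7 (103.5 and 286.4 TPM), CDH1 and MUC1 went the other way: in the test described below 3 of the 10 rose and 7 fell. Of 14 listed markers of cornified keratinocytes, 3 reached 1 TPM, and their sum, of which the keratin KRT10 alone made 18.93 to 32.03 TPM, was 30.36 to 37.92 TPM with DMSO and 34.61 to 39.34 TPM with NTX301. KRT1, the usual partner of KRT10 in skin, was at 0 in all 6 libraries. Listed fibroblast markers summed to 5.41 to 6.28 TPM with DMSO and 21.53 to 22.33 TPM with NTX301 (4 of 10 reached 1 TPM), and endothelial markers to 1.78 to 2.20 and 2.85 to 3.22 TPM (1 of 8). Leukocyte markers summed to 47.19 to 53.27 and 83.29 to 91.47 TPM (5 of 10 reached 1 TPM), mainly through CD68 (24.54 to 30.77 and 50.59 to 56.87 TPM) and CD14 (15.82 to 17.28 and 27.07 to 27.31 TPM), while the pan-leukocyte gene PTPRC was at 0 in the DMSO libraries and at most 0.07 TPM with NTX301. The part of these changes in the results was not tested. Libraries held 22131175 to 25743732 estimated counts.

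Promoter sequence is shown because methylation of human DNA lies mainly at CG pairs. DNA methylation was not analysed here. The sequences are those of RefSeq (GRCh38.p14), each the 250 bases before a start listed with them for the gene. They run 5′ to 3′ on the strand of the gene, with CG pairs in capitals. The listed starts differ from the GENCODE gene positions given below. DSP and PKP1 are shown as genes that rose with NTX301, JUP as a gene that fell, and DSC3 and DSG3 as the cadherins that were close to absent.
DSP: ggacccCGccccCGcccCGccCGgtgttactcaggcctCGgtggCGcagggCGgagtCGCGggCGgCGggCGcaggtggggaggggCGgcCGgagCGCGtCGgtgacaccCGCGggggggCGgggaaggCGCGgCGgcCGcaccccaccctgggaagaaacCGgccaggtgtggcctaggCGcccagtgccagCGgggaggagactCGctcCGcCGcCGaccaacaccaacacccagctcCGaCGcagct
PKP1: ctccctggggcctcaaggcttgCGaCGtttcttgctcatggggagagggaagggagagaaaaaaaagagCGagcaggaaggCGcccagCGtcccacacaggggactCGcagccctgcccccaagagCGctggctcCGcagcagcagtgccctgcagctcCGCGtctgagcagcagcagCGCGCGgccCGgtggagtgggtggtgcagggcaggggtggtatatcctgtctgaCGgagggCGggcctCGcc
JUP: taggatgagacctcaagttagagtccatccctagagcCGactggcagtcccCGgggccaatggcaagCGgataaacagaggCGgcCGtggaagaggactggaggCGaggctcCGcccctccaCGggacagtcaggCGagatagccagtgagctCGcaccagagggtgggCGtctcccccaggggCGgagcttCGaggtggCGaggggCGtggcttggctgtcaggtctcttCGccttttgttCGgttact
DSC3: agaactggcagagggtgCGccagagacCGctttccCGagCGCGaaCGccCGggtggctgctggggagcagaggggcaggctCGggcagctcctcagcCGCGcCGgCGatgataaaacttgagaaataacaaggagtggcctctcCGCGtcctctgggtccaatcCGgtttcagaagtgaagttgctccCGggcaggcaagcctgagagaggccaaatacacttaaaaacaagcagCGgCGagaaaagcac
DSG3: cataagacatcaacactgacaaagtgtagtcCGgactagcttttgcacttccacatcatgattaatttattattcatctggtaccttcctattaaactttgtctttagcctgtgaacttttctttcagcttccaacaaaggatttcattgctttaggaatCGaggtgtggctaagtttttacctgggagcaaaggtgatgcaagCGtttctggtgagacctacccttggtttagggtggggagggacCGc
The DSP window lies at chr6:7541421-7541670 on the plus strand, PKP1 at chr1:201283256-201283505 (plus), JUP at chr17:41786712-41786961 (minus), DSC3 at chr18:31042743-31042992 (minus) and DSG3 at chr18:31447491-31447740 (plus). By the GENCODE positions, the DSP, PKP1, JUP and DSC3 windows reach into the gene, and the DSG3 window ends before it.

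The table held 10 windows for 8 of the 10 genes, with 2 starts each for DSC2 and JUP, and PKP2 and PKP3 were not matched. Their windows held 4 to 34 CG pairs, against a median of 11 over all 35116 windows of the table. PERP had 34 and DSP 33, a number that 6.84% and 8.15% of all windows reached. DSG2 had 26, DSC2 had 12 at its first start and 19 at its second, and JUP had 17 and 13. The second DSC2 and JUP windows lay wholly within the GENCODE span of their gene. The DSG2 and PERP windows and the first DSC2 window reached into that span. The close to absent DSC3 had 18, a number that 36.8% of windows reached, and the close to absent DSG3 had 4, which 70.7% reached. PKP1 and the first JUP start had 17 CG pairs each. The sequence CAGGTG, an E-box of the kind bound by SNAI and ZEB repressors, was searched on both strands and stood in 4 of the 10 windows (DSP, DSG2, DSC2 at its first start and JUP at its second), against 17.5% of all windows. The AP-1 sequence TGANTCA, also searched on both strands, stood in the PERP window alone among the 10, against 6.57% of all windows. These matches describe the letters only.

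With NTX301, DSP, PKP1 and PKP2 rose and JUP, PKP3 and DSC2 fell, while DSG2 and PERP were not past the threshold. That threshold was an adjusted p of 0.05 over all 19029 genes tested (Benjamini-Hochberg, quasi-likelihood test of edgeR). The desmosome components therefore did not move as a block: 3 of the 8 tested genes rose and 3 fell, with a median log2 fold change of 0.0005, against -0.0005 for all tested genes. Among all tested genes, 70.5% were called, 35.4% higher and 35.1% lower, so 6 of 8 is close to the share of the whole transcriptome. The CPM (counts per library size) of the groups did not overlap for the same 6 of 8 components, against 73.7% of all tested genes (37.1% with NTX301 higher, 36.5% with it lower). Changes are relative to the typical gene, as libraries were scaled by TMM. Without a scaling factor the median of all tested genes was 0.21 on the log2 scale. On that scale, and on log2(TPM + 1) and log2(TPM + 0.1), 5 components rose and 2 fell, since DSG2 and PERP were then higher and DSC2 was not past the threshold. The counts over all tested genes shifted the same way: 46.2% were higher and 24.9% lower without a scaling factor, 45.5% and 22.7% on log2(TPM + 1), and 45.2% and 22.6% on log2(TPM + 0.1). DSP, PKP1, PKP2, JUP and PKP3 kept direction and call under all 15 alternatives run. RNA of a whole culture was measured, so fewer cells with a transcript and less of it per cell cannot be told apart.

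**Figure D1:**
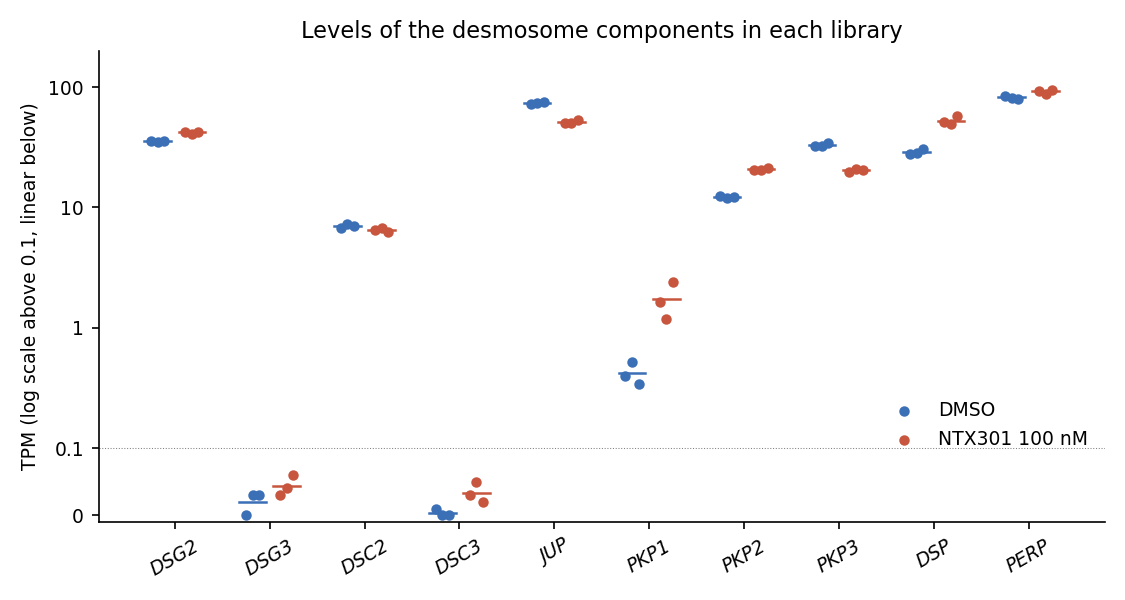
TPM of each of the 10 genes in each library (points; bars are means of 3 libraries), with DMSO in blue and NTX301 in red, on an axis that is logarithmic above 0.1 TPM and linear below. On this scale, which carries no TMM factor, the groups do not overlap for DSG2, JUP, PKP1, PKP2, PKP3, DSP and PERP. They overlap for DSC2, and DSG3 and DSC3 stay under 0.1 TPM in all libraries. The share of all genes without overlap in TPM was not counted. On log2(TPM + 0.1), 45.2% of all tested genes were called higher and 22.6% lower.

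With DMSO the order of levels per length was PERP (81.9 ± 2.19 TPM, mean ± SD, n = 3), JUP (73.3 ± 1.51), DSG2 (35.3 ± 0.465), PKP3 (32.9 ± 1.06), DSP (28.95 ± 1.51), PKP2 (12.2 ± 0.12), DSC2 (6.99 ± 0.3) and PKP1 (0.420 ± 0.0917). No neighbours in this order overlapped between libraries. With NTX301 the order was PERP (92.2 ± 3.64 TPM), DSP (52.65 ± 4.42), JUP (51.1 ± 1.70), DSG2 (42.0 ± 0.941), PKP2 (20.8 ± 0.446), PKP3 (20.3 ± 0.670), DSC2 (6.497 ± 0.235) and PKP1 (1.74 ± 0.606). In that order the libraries of DSP and JUP overlapped, as did those of PKP2 and PKP3. DSG3 and DSC3 stood below 0.1 TPM in all 6 libraries.

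Among the cadherins, DSG2 carried nearly all desmoglein transcript. DSG2 (ENSG00000046604.14, chromosome 18, 31498043 to 31549008, plus strand, positions from GENCODE 29 on GRCh38) had 123.6, 117.3 and 116.5 CPM with DMSO. It had 126.6, 122.4 and 118.9 CPM with NTX301, and the groups overlapped. The log2 fold change was 0.04 ± 0.04 (estimate ± SE, edgeR adjusted p = 0.38). Without a scaling factor it was 0.25 (adjusted p = 9.9e-05), and across the 15 alternatives its adjusted p lay between 9.9e-05 and 0.84.

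DSC2, the desmocollin of simple epithelia, was the weaker expressed cadherin of the pair. DSC2 (ENSG00000134755.18, chromosome 18, 31058840 to 31102522, minus strand) had 21.96, 22.8 and 22.04 CPM with DMSO and 17.83, 18.34 and 16.5 CPM with NTX301. All NTX301 libraries lay below all DMSO libraries. DSC2 fell by 0.34 on the log2 scale (SE 0.06, edgeR adjusted p = 0.00033), 1.27-fold lower. This call was lost without a scaling factor (log2 -0.14, adjusted p = 0.062) and on log2(TPM + 1) (-0.09, adjusted p = 0.32), and across the alternatives its adjusted p lay between 6.6e-05 and 0.32. The ratio of DSG2 to DSC2 TPM, which no library scaling touches, was 5.34, 4.77 and 5.05 with DMSO and 6.58, 6.07 and 6.77 with NTX301, so the groups did not overlap in it. This ratio was not tested, and it cannot tell a lower DSC2 from a higher DSG2.

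DSG3 and DSC3, the cadherins of stratified epithelia, gave too few counts for the test. DSG3 (ENSG00000134757.5, chromosome 18, 31447795 to 31478702) had 0, 2 and 2 counts with DMSO and 2, 3 and 4 with NTX301. The ratio per library size was 2.02 with an exact 95% counting interval of 0.564 to 8.99, so a difference was not detectable at this depth. DSC3 (ENSG00000134762.17, chromosome 18, 30990008 to 31042815) had 1, 0 and 0 counts with DMSO and 3, 5 and 2 with NTX301. Its libraries did not overlap, and the ratio was 8.99 with an interval of 1.28 to 390.0, which covers counting error only. With genes of any count in the fit, edgeR called neither (adjusted p = 0.49 for DSG3 and 0.075 for DSC3). As shares per length, DSG2 made 99.94 ± 0.0493% of DSG2 and DSG3 TPM with DMSO and 99.9 ± 0.0357% with NTX301 (exact permutation test, two-sided, p = 0.4, adjusted p = 0.4 over 5 shares). DSC2 made 99.95 ± 0.0862% and 99.49 ± 0.213% of DSC2 and DSC3 TPM (exact permutation p = 0.1, adjusted p = 0.125), where 0.1 is the smallest p that 3 against 3 libraries allow.

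The 4 cadherins above lie in a cluster of 7 desmosomal cadherin genes that spans 559 kb of chromosome 18. In chromosome order these are DSC3, DSC2, DSC1, DSG1, DSG4, DSG3 and DSG2, and only DSC2 and DSG2 exceeded 0.2 TPM in any library. DSC1 and DSG1, cadherins of the upper layers of skin, had 0 counts in the summed DMSO libraries and 1 and 2 in the summed NTX301 libraries, both under the floor of 3 counts over a group (0.0439 CPM with DMSO, 0.0394 CPM with NTX301). DSG4, a desmoglein of hair, had 11 and 20 counts over the libraries of each treatment (ratio 1.63, 95% counting interval 0.746 to 3.78). Next to DSG2, TTR, which encodes transthyretin, was at 0 counts in all libraries. B4GALT6, a galactosyltransferase gene beyond it, rose (log2 0.45 ± 0.05, edgeR adjusted p = 6.8e-06). On the other side, the next coding genes lie farther from DSC3 than TTR does from DSG2. CDH2 (N-cadherin, 27950966 to 28177446) had 14 and 17 counts over the libraries of each treatment. CHST9, a sulfotransferase gene (26906481 to 27185317), fell by 0.70 on the log2 scale (SE 0.05, edgeR adjusted p = 7.8e-08). The genes named here thus had levels from 0 TPM to 42.64 TPM.

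**Figure D2:**
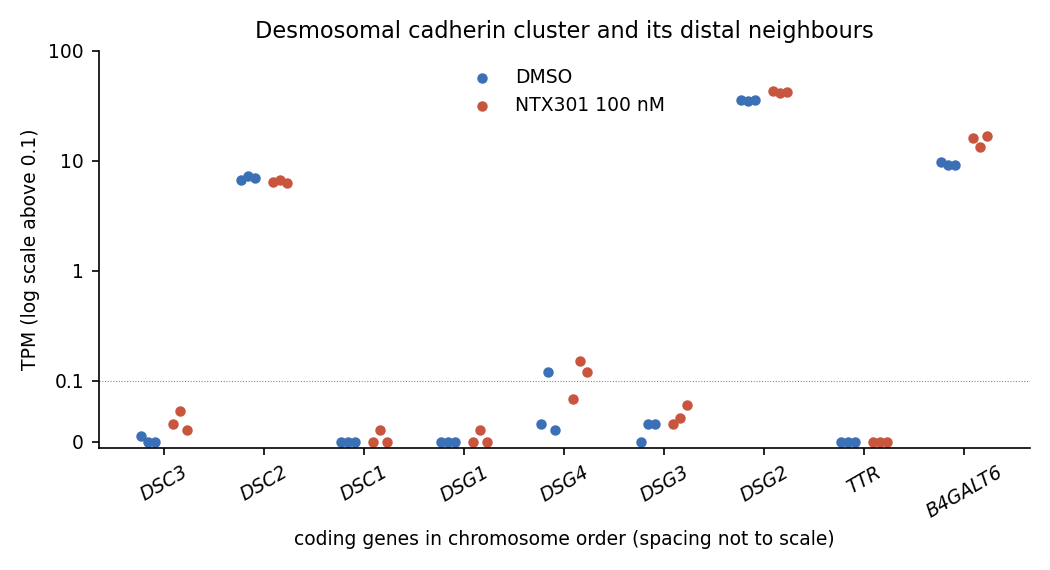
TPM in each library for the 7 desmosomal cadherin genes of chromosome 18 and the next 2 coding genes, in chromosome order with spacing not to scale, on an axis that is logarithmic above 0.1 TPM. DSC2 (6.27 to 7.29 TPM) and DSG2 (34.8 to 42.64 TPM) stand above cadherin neighbours that stay under 0.2 TPM with DMSO and with NTX301.

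Among the armadillo proteins, JUP encodes plakoglobin, which binds desmosomal cadherins and can also join classical adherens junctions. JUP (ENSG00000173801.17, chromosome 17, 41754604 to 41786931, minus strand) had 146.5, 145.2 and 144.9 CPM with DMSO and 86.66, 88.72 and 89.02 CPM with NTX301. The groups stood far apart, with a coefficient of variation of 0.605% among DMSO libraries and 1.46% among NTX301 libraries. JUP fell by 0.72 on the log2 scale (SE 0.04, edgeR adjusted p = 5.5e-09), 1.65-fold lower. A lower log2 fold change was seen in 15.5% of all tested genes, so a fall of this size was common in these cells.

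The plakophilins, which bind desmoplakin and widen the plaque, moved in different directions. PKP3 (ENSG00000184363.10, chromosome 11, 392614 to 404908, plus strand), found in most epithelia, had 55.26, 53.8 and 55.63 CPM with DMSO and 28.7, 30.83 and 28.42 CPM with NTX301. It fell by 0.90 on the log2 scale (SE 0.05, edgeR adjusted p = 1.1e-08), 1.87-fold lower. All NTX301 libraries were far below all DMSO libraries, and 10.6% of tested genes had a lower log2 fold change.

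PKP2 (ENSG00000057294.17, chromosome 12, 32790745 to 32896840, minus strand), the plakophilin of simple epithelia and heart muscle, had 31.99, 30.5 and 30.17 CPM with DMSO and 45.36, 45.76 and 45.15 CPM with NTX301. It rose by 0.56 on the log2 scale (SE 0.05, edgeR adjusted p = 4.7e-07), 1.47-fold. PKP1 (ENSG00000081277.13, chromosome 1, 201283452 to 201332993, plus strand), the plakophilin of stratified epithelia, had 1.32, 1.66 and 0.962 CPM with DMSO and 4.59, 3.34 and 5.51 CPM with NTX301. It rose by 1.75 on the log2 scale (SE 0.23, edgeR adjusted p = 3.2e-05), 3.37-fold, and 5.70% of tested genes had a higher log2 fold change. PKP1 rested on 91 counts in all with DMSO and 341 with NTX301, and its libraries varied more than those of the other tested components (26.7% and 24.4% coefficient of variation). Its groups did not overlap.

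The makeup of the plakophilin transcripts was compared next, as shares of their summed TPM. PKP3 made 71.72, 71.95 and 73.13% of plakophilin TPM in the DMSO libraries and 47.04, 49.11 and 46.22% in the NTX301 libraries. PKP2 made 27.39, 26.9 and 26.15% with DMSO and 49.03, 48.1 and 48.35% with NTX301. PKP1 went from 0.925 ± 0.217% to 4.05 ± 1.33% (n = 3 each). From DMSO to NTX301 the mean share of PKP3 fell by 24.8 percentage points and that of PKP2 was 21.7 points higher, both with no overlap between groups. Each of the 3 shares had an exact two-sided permutation p of 0.1, the smallest that 3 against 3 libraries allow, and an adjusted p of 0.125 over 5 shares, so no share could pass the threshold. These shares do not depend on library scaling.

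**Figure D3:**
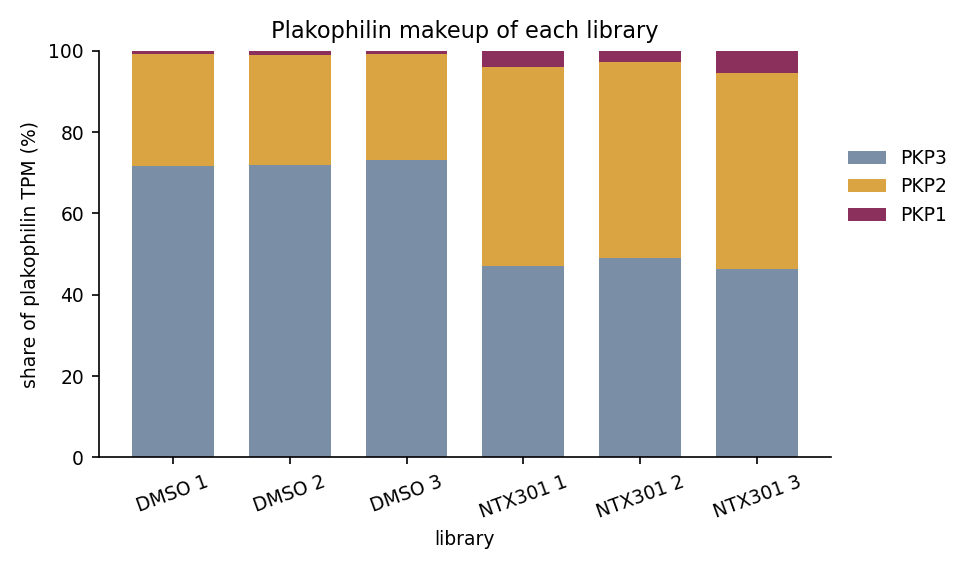
Stacked bars of the share of PKP1, PKP2 and PKP3 in their summed TPM, in percent, for each of the 6 libraries. PKP3 makes 71.72 to 73.13% with DMSO and 46.22 to 49.11% with NTX301, and PKP2 goes from 26.15 to 27.39% to 48.1 to 49.03%.

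DSP encodes desmoplakin, the plakin without which desmosomes do not hold keratin. DSP (ENSG00000096696.15, chromosome 6, 7541575 to 7586717, plus strand) had 159.7, 156.0 and 168.6 CPM with DMSO and 251.8, 240.0 and 268.6 CPM with NTX301. All NTX301 libraries were above all DMSO libraries. DSP rose by 0.65 on the log2 scale (SE 0.05, edgeR adjusted p = 2e-07), 1.57-fold, and 20.8% of tested genes had a higher log2 fold change.

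PERP, the membrane protein of desmosomes, had the highest TPM of the components in both groups. PERP (ENSG00000112378.12, chromosome 6, 138088505 to 138107511, minus strand) had 217.1, 203.1 and 196.4 CPM with DMSO and 204.5, 194.8 and 200 CPM with NTX301, and the groups overlapped. The log2 fold change was -0.04 ± 0.04 (edgeR adjusted p = 0.43). Its sign was the opposite without a scaling factor (0.17, adjusted p = 0.0033) and on log2(TPM + 1) (0.17, adjusted p = 0.0068), and across the alternatives its adjusted p lay between 0.0033 and 0.87.

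**Figure D4:**
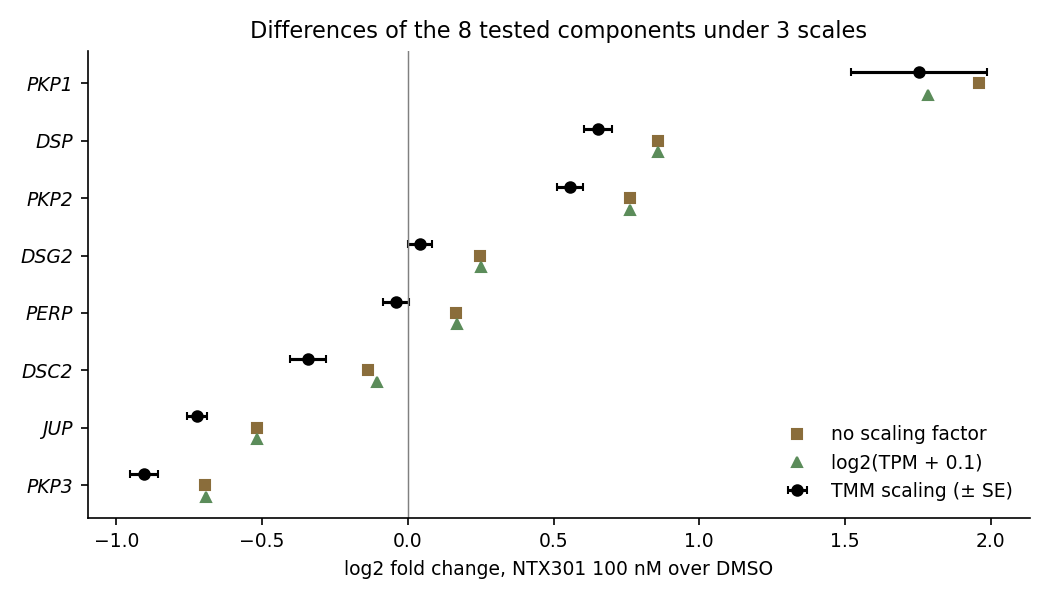
Log2 fold change of NTX301 over DMSO for the 8 tested components with TMM scaling (black, bars ± SE), without a scaling factor (brown squares) and on log2(TPM + 0.1) (green triangles). PKP1, DSP and PKP2 lie right of 0 and JUP and PKP3 left of it on each of these scales, while PERP lies at -0.04 with TMM and at 0.17 on the other scales.

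The opposite changes of DSP and JUP altered their ratio. DSP had 27.95, 28.21 and 30.68 TPM with DMSO against 71.81, 73.16 and 74.82 TPM of JUP. With NTX301 it had 51.5, 48.92 and 57.54 TPM against 49.8, 50.49 and 53.02 TPM of JUP. The ratio of DSP to JUP was 0.395 ± 0.0132 with DMSO and 1.03 ± 0.0583 with NTX301 (n = 3 each), with no overlap. Likewise the ratio of PKP2 to PKP3 was 0.371 ± 0.0124 and 1.02 ± 0.0374. The ratio of DSP to DSG2, desmoplakin against the main cadherin, was 0.820 ± 0.0431 with DMSO and 1.25 ± 0.0892 with NTX301. These ratios were chosen after their values were seen and were not tested.

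The summed level of the 10 components was 269.66 to 274.81 TPM with DMSO and 278.11 to 298.68 TPM with NTX301. Within that sum JUP made 26.9 ± 0.430% with DMSO and 17.8 ± 0.351% with NTX301, and PKP3 made 12.1 ± 0.287% and 7.08 ± 0.405%. DSP made 10.6 ± 0.461% and 18.3 ± 0.864%, and PKP2 made 4.49 ± 0.0488% and 7.23 ± 0.141%. DSG2 made 12.98 ± 0.151% and 14.6 ± 0.373%. PERP made 30.1 ± 0.945% and 32.1 ± 0.486%, DSC2 2.57 ± 0.122% and 2.26 ± 0.163%, and PKP1 0.155 ± 0.0351% and 0.601 ± 0.1875%. The groups did not overlap in any of these shares, which no library scaling touches. Shares of a sum are tied to each other, so those of DSG2 and PERP can be higher although neither gene was called. The direction of the sum rests on the scale, since TPM carry no TMM factor: divided by that factor it was 288.9 to 295.0 with DMSO and 260.4 to 275.8 with NTX301, and summed as CPM the groups overlapped (730.5 to 757.6 and 744.5 to 772.4).

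Other desmosomal genes and the plakins near them were examined next. For this list and those below, 35.4% of all tested genes were higher and 35.1% lower as background. Without a scaling factor these shares were 46.2% and 24.9%, and on log2(TPM + 1) they were 45.5% and 22.7%. No list was tested as a set. Of 7 listed, 4 were tested, 1 rose and 1 fell (median log2 fold change 0.02). EVPL, which encodes envoplakin, a plakin of desmosomes and of the cornified envelope, went from 284 ± 9.92 to 83.4 ± 4.54 CPM (n = 3 each) and fell by 1.77 on the log2 scale (SE 0.05, edgeR adjusted p = 7.3e-11). PKP4, a relative of the plakophilins, rose by 0.10 ± 0.04 (adjusted p = 0.023). PPL, the plakin partner of envoplakin, was at 83.7 ± 1.43 and 80.3 ± 1.92 CPM (log2 -0.06 ± 0.04, adjusted p = 0.19, with the opposite sign at 0.15 without a scaling factor).

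Of 13 listed genes of adherens junctions, the neighbouring cadherin contacts that hold actin, 11 were tested, 3 rose and 7 fell (median -0.27, and 4 rose and 5 fell without a scaling factor). AFDN, which encodes the actin-binding afadin, went from 376 ± 11.5 to 168 ± 2.68 CPM (n = 3 each), and CTNND1, the catenin that keeps cadherins at the membrane, fell by 1.01 on the log2 scale. CTNNB1, beta-catenin, the close relative of plakoglobin, fell by 0.27 (SE 0.04, edgeR adjusted p = 3.4e-05), a call lost without a scaling factor (-0.06, adjusted p = 0.13). E-cadherin (CDH1) was low, at 9.57 ± 0.841 and 11.9 ± 0.703 CPM, and rose by 0.31 ± 0.09 (adjusted p = 0.0099). CDH3, P-cadherin, rose by 2.20 ± 0.23 from 0.511 CPM, and NECTIN1, a nectin adhesion receptor, by 0.52 ± 0.05.

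Epithelial keratins, the filaments that desmoplakin holds, moved in both directions. Of 15 listed, 11 were tested, 6 rose and 5 fell (median 0.57), counts that were the same without a scaling factor and on log2(TPM + 1). KRT8 and KRT18, the pair of simple epithelia, fell by 1.08 each on the log2 scale, KRT8 from 2248 ± 78.4 to 1062 ± 36.1 CPM and KRT18 from 1467 ± 65.5 to 692 ± 18.2 CPM (n = 3 each). KRT7, another abundant keratin of simple epithelia, went the other way and rose by 1.26 ± 0.05 (97.7 ± 6.47 to 233 ± 3.83 CPM, edgeR adjusted p = 7.4e-10). KRT23 and KRT20 fell by 1.26 and 1.24 on the log2 scale, KRT20 from 405 ± 19.0 to 171 ± 6.95 CPM. KRT5 and KRT15, keratins of basal layers, rose by 2.35 ± 0.32 and 1.87 ± 0.18, from 0.330 to 1.73 CPM and from 0.883 to 3.23 CPM. KRT8 and KRT18 have many pseudogene copies, between which the counting can divide reads, so their values are uncertain to that extent.

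Among 15 transcription factors listed for links to desmosomal genes or to the epithelial state, 11 were tested, 7 rose and 1 fell (median 0.78, and 9 and 1 without a scaling factor). SNAI2 and SNAI1, repressors of epithelial genes, rose by 3.64 ± 0.07 and 2.30 ± 0.10 on the log2 scale (to 41.5 and 15.7 CPM). ZEB1, another such repressor, rose by 0.18 ± 0.05 (edgeR adjusted p = 0.0046). ELF3, an epithelial factor, went from 177 ± 7.77 to 69.7 ± 2.59 CPM (n = 3 each). Epithelial factors of the list also rose: KLF4 by 1.47 ± 0.06 (28.9 ± 1.83 to 80.4 ± 3.55 CPM), OVOL1 by 1.61 ± 0.36 (0.333 to 1.04 CPM) and GRHL1 by 0.78 ± 0.22 (1.70 to 2.92 CPM), the last call being lost on log2(TPM + 1) (adjusted p = 0.094). TP63, a regulator of PERP in skin, stayed at 0.135 ± 0.117 and 0.157 ± 0.103 CPM and was not tested. The part of these factors in the changes of desmosome components was not tested.

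Of 13 genes with roles in desmosome assembly, turnover or shedding, all tested, 1 rose and 9 fell (median -0.36). Without a scaling factor 4 rose and 7 fell, and on log2(TPM + 1) 6 and 6, with a median of 0.09, so the direction of this list rests on the scale. ADAM10, a protease that can shed cadherins, went from 659 ± 6.66 to 356 ± 4.27 CPM (n = 3 each). FLOT2, a membrane raft protein, fell by 0.83 on the log2 scale. KIF5B, a kinesin motor heavy chain, rose by 0.24 ± 0.04. EGFR, the growth factor receptor, was at 689 ± 8.91 and 635 ± 21.2 CPM (log2 -0.12, edgeR adjusted p = 0.02), with the opposite sign without a scaling factor (0.09, adjusted p = 0.058) and the call also lost with upper-quartile scaling (adjusted p = 0.061).

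**Figure D5:**
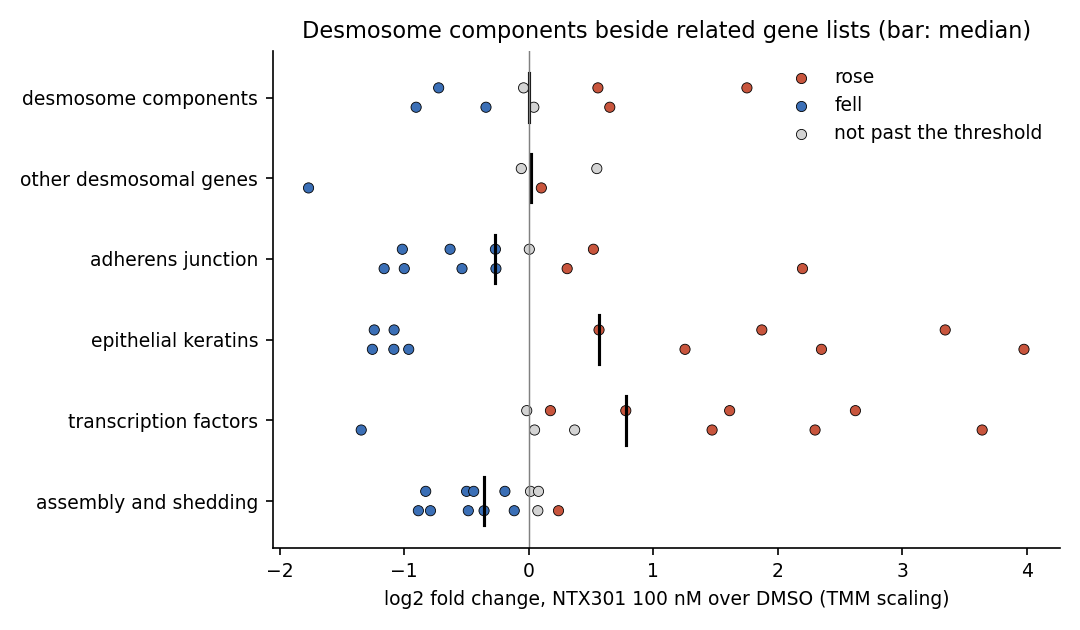
Log2 fold change of NTX301 over DMSO with TMM scaling for each tested gene of the desmosome components and of 5 related lists, with genes that rose in red, fell in blue and were not past the threshold in grey, and black bars for list medians. The components spread from -0.90 to 1.75 around a median of 0.0005, and keratins fall into a lower group of 5 and a higher group of 6; of the genes named, PERP, PPL and EGFR change sign without a scaling factor.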

How the data were processed

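RNA of OVCAR5 cells was sequenced by the authors from 3 libraries with DMSO and 3 with 100 nM NTX301, with groups and replicate numbers taken from the labels. Per the file headers, the deposited tables have the columns of RSEM: expected counts (estimated reads per gene, not normalized, not always whole), TPM values (scaled by the authors for transcript length and library total) and FPKM values, which were not used. The deposited lengths are other values, in bases, per the file headers. The sources used here give no aligner, version, genome build, annotation or strand setting. Of 62703 entries, 47 on the Y pseudoautosomal regions were added to their X copies. Symbols matched 62639 genes. Positions came from GENCODE 29 (GRCh38) by stable identifier, which held 58220 of the 62656 genes. All 34717 transcripts compared, which shared identifier and version with GENCODE 29, had the length in the files. A shared version makes equal length likely beforehand, so this does not show which annotation the files used.

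Counts were rounded and tested with edgeR 4.0.16 (R 4.3.3): filterByExpr, TMM, glmQLFit and glmQLFTest, treatment as the only term, Benjamini-Hochberg threshold 0.05. CPM values use library totals times TMM factors. Errors of log2 fold changes were derived from the F statistic. Shares of TPM were compared by exact permutation (scipy 1.17.1). Alternatives were other scalings, DESeq2 1.42.0, limma 3.58.1 (voom, and log2 of TPM plus a pseudocount of 1 or 0.1), other filters, the replicate number as a block and leaving out each library. The test was checked on simulated data in which few genes changed, evenly in both directions. That check does not bear on the scaling of data in which 70.5% of tested genes were called. All 10 components are named. From each related list, the 2 highest and 2 lowest log2 fold changes among called genes averaging at least 1 CPM are named, with CDH1, CTNNB1, KRT8, KRT18 and TP63 as partners. PPL, KRT7, KLF4, OVOL1, GRHL1, DSG1, DSC1 and DSG4 were named after their values were seen. The components, lists and tests were chosen with earlier results of these data known. No library was a duplicate of another (chi-square of counts over its degrees of freedom, 2.37 to 6.57 for libraries of the same treatment).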

Additional observations from a re-analysis of the deposited data

How the results depend on the processing

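The 5 calls of DSP, PKP1, PKP2, JUP and PKP3 held under all 15 alternatives run. The count of 3 components higher was 5 without a scaling factor, on log2(TPM + 1) and on log2(TPM + 0.1), and the count of 3 lower was 2 on each of these. The counts over all genes shifted the same way: 6744 were higher and 6677 lower with TMM, 8793 and 4732 without a scaling factor, 8652 and 4318 on log2(TPM + 1), and 8607 and 4297 on log2(TPM + 0.1). PERP changed sign to 0.1662 without a scaling factor, 0.1683 on log2(TPM + 1) and 0.1701 on log2(TPM + 0.1), and DSC2 had -0.10 on the last (adjusted p = 0.31 with limma). These scales differ from TMM by construction, which moves the median of all genes. The log2 fold change of PKP1 was 0.93 on log2(TPM + 1), where a pseudocount of 1 understates the change of a gene at this level. Leaving out a library kept 3 components higher and 3 lower. It left 6400 to 6698 genes higher and 6319 to 6645 lower. The summed TPM of the components was 15.4 higher with NTX301 and changed sign to -24.6 when divided by the TMM factor, a scale added after seeing the data. The share differences kept their signs in all 9 alternatives each.

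With the replicate number as a block, 3 components rose, 3 fell, and 6837 genes were higher and 6749 lower. Deviations from group means correlated by 0.1059, 0.0031 and 0.0741 between libraries of the same number, so the numbers were not taken as pairs. DMSO replicates 1 and 3 each correlated best with the NTX301 library of the same number. DMSO replicate 2 correlated best with NTX301 replicate 3 (0.0314). DSG3 and DSC3 are limited by depth, with at most 5 counts in a library.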

Other observations

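Expected counts of DSG2, PKP2 and PERP were fractional in all 6 libraries and those of DSG3 in 4, which is how RSEM records reads divided between genes, and those of DSC2, DSC3, JUP, PKP1, PKP3 and DSP were whole to within 0.005. PERPP2, a pseudogene copy of PERP, had 34.43 to 49.88 counts in a library. DSG2-AS1, antisense to DSG2, had 1.06 to 2.15 counts, and DSCAS, antisense to DSC1 and to one end of DSC2, had 0 to 5.

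RSEM also reports a transcript length per gene, weighted by the estimated level of each transcript. For DSP it was 9192.34 to 9326.55 bases with DMSO and 9232.27 to 9258.63 bases with NTX301, and for JUP 3335.27 to 3345.67 and 3342.77 to 3372.26 bases, so these groups overlapped. For PKP1 it was 5326 bases in replicates 1 and 2 of both treatments, 4896.22 bases in DMSO replicate 3 and 4605.47 bases in NTX301 replicate 3, from 20 and 142 counts.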
